A study of Mus musculus with 23 samples.

Results

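F9 mouse embryonal carcinoma cells were compared at 24 h and at 12 h of exposure to all-trans retinoic acid (RA, 1e-07 M), with 2 mRNA libraries at each time. The 4 libraries were chosen by their titles and paired by the replicate number in the title, so that number 1 at 24 h was set against number 1 at 12 h and number 2 against number 2. They are 4 of the 14 mRNA libraries and of the 23 samples of the series, whose other samples are 8 chromatin immunoprecipitation libraries and 1 whole cell extract. The other mRNA libraries are 4 of untreated cells at 0 h, 2 each at 6 h and 48 h of RA, and 1 each of cells kept in the solvent DMSO (0.001%) for 24 h and 48 h. The wild-type line carries no stated allele or transgene, and all groups grew on gelatine-coated plates. No solvent library of 12 h was used, so that time in culture and RA cannot be told apart in the step from 12 to 24 h. The titles number the replicates but nothing says that they are separate cultures, so that p-values measure the spread between these libraries only.

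F9 cells are malignant stem cells that resemble the inner cell mass of the blastocyst. Under RA they turn into primitive endoderm, the layer that later divides into parietal endoderm, which lays down a thick basement membrane, and visceral endoderm, which absorbs and secretes. RA enters the nucleus on the carrier Crabp2 and binds receptors of the RAR family, which sit with RXR partners on paired hexamers of DNA (retinoic acid response elements) and switch from repression to activation when RA binds. The first genes to respond include the receptor Rarb, the RA-degrading enzyme Cyp26a1 and the 3′ Hox genes. Endoderm transcription factors such as Gata6, Gata4 and Sox17, and then basement membrane genes, are known to follow. Between 12 h and 24 h the question is which genes of the early wave still moved and which endoderm genes had begun to.

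Rarb and Cyp26a1 are the textbook direct targets of RA, and the sequences before their start sites are shown because both genes were high by 12 h and neither passed the test from 12 to 24 h. The sequences are RefSeq's (GRCm38.p6), cover 250 bases before the start and are written 5′ to 3′ along the gene. Capitals mark the match to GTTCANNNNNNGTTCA on either strand, 2 half-sites with the spacing of a DR5-type response element.
Rarb, chr14:16575477-16575726, minus strand: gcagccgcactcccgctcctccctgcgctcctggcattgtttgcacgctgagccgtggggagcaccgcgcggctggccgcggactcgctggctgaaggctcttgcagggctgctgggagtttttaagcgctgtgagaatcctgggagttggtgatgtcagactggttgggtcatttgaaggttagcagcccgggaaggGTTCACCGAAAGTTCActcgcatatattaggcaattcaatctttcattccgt
Cyp26a1, chr19:37697558-37697807, plus strand: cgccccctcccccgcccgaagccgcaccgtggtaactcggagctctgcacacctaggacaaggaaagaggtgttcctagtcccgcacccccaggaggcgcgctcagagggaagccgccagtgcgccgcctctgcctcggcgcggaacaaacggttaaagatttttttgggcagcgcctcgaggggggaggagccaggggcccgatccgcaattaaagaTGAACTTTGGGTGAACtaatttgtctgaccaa
The Rarb match runs from base -52 to base -37 and the Cyp26a1 match, on the other strand, from base -32 to base -17. The motif was in 22 (0.067%) of all 32851 windows of this length and in 5 (0.0373%) of the 13415 windows of genes tested here. Of the 594 windows of genes that rose in the first 6 h it was in 2 (0.337%), those of Rarb and Cyp26a1. It was in none of the 1067 windows of genes higher at 24 h than at 12 h and in 1 (0.125%) of the 802 windows of genes lower at 24 h. Rarb and Cyp26a1 were picked for display as known targets, and only this exact pattern was searched. The shares therefore say little about response elements in these groups of genes.

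Library depth ran from 7078941 to 10948932 gene counts over the 14 mRNA libraries, with 8586828 and 10575806 at 12 h and 9165415 and 10722775 at 24 h. Number 1 libraries stood apart from number 2 libraries at every time. Among reads that met a gene or met no feature at all, the latter made up 57.3 to 59.43% in number 1 and DMSO libraries and 52.51 to 53.77% in the others. The replicate number was therefore a term of the model. After it was taken out, the first principal component (62.01% of the variance) placed the 12 h libraries at -14.8 and -14.25 and the 24 h libraries at 30.53 and 23.36, between 6 h (-31.09 and -30.25) and 48 h (60.07 and 62.36). Levels below are CPM, read counts relative to a library size scaled with TMM factors, given for libraries 1 and 2 in that order. A DMSO level is to be read beside number 1, which the DMSO libraries resembled in the share of reads with no feature. A log2 change is that of the fitted model, with its standard error (SE), and a gene is called when edgeR's quasi-likelihood test gives an adjusted p under 0.05 (Benjamini-Hochberg, over 15318 genes).

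From 12 to 24 h of RA, 1921 genes (12.5%) were called, of which 1018 (6.65%) were higher and 903 (5.9%) lower at 24 h. The increases were the larger ones. Among called genes 523 rose and 105 fell by a log2 change of at least 1, and 164 rose and 17 fell by at least 2. The median change was 1.02 among genes that rose, -0.62 among genes that fell, and -0.011 over all genes tested. Direction was shared by both pairs in 1919 of the 1921 genes, which the calls largely fix because they come from these same pairs. Over the 11344 genes that averaged 5 CPM or more, called or not, the changes of both pairs correlated with r = 0.6312. The change was larger in the number 1 pair in 1528 (79.5%) of the 1921, and over 11344 genes that averaged 5 CPM or more the SD of the change was 0.6548 in that pair and 0.4378 in the number 2 pair. Both 24 h libraries lay above, or both lay below, the 12 h libraries in 5372 genes (35.1% of those tested), 1530 of them called. Most of these genes were not called. With 2 libraries at each time, groups that do not overlap therefore say little by themselves about a single gene. The number of calls moved with the libraries: 135 were called without the number 1 library of 12 h, 267 without the number 2 library of 12 h, 591 without the number 1 library of 24 h and 3909 without the number 2 library of 24 h. Without either 6 h library, which only shares its estimate of spread, 1214 and 1231 were called. Gene groups below are therefore given with their calls under the same 4 leave-outs of the 12 h and 24 h libraries, always in that order. The calls of each group are to be read beside the shares of all genes, 6.65% higher and 5.9% lower. Some genes, such as Lefty1, Dkk1 and Krt8, are members of several groups, so that the counts of groups are not independent. Of 156 called genes named by rule, 44 kept their call under all 4.

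**Figure D1:**
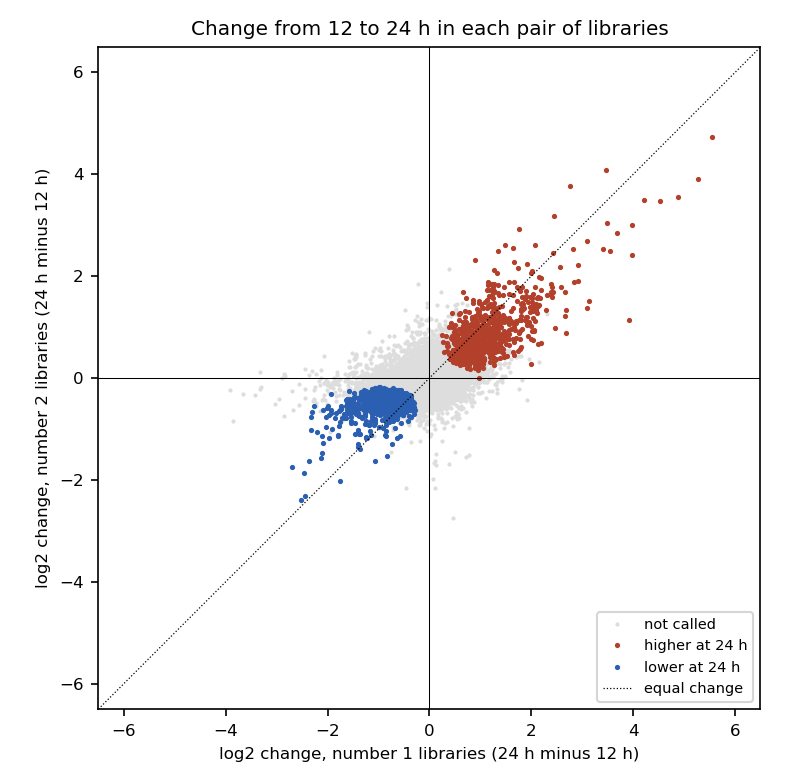
Change from 12 to 24 h of RA in the number 1 pair of libraries (x axis, log2) against the number 2 pair (y axis, log2), 1 point for each of 11344 genes averaging 5 CPM or more, coloured by call. Both pairs changed in the same direction in 1919 of all 1921 called genes, which the calls largely fix because they come from these same pairs. Of the called genes 79.5% changed more in the number 1 pair (the dotted line is equal change).

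The early RA targets fixed as a list did not fall from 12 to 24 h: 9 of 21 were higher, none was lower, and the list's median change was 0.72 against -0.011 over all genes. With the 4 leave-outs 4, 6, 7 and 10 were called higher. Crabp2, the carrier that hands RA to its receptors, stood at 95.3 and 77.4 CPM at 12 h and at 353 and 226.6 CPM at 24 h, a log2 change of 1.72 ± 0.14 (SE; adjusted p = 0.00012). Both 24 h libraries were above both 12 h libraries, and the DMSO library of 24 h had 9.51 CPM. Stra6, the membrane receptor that takes up retinol, stood at 21.1 and 29.3 CPM at 12 h and at 91.8 and 71.6 CPM at 24 h, a log2 change of 1.69 ± 0.19 (adjusted p = 0.000621). The groups did not overlap, and no read was counted in the DMSO library of 24 h. Dhrs3, which reduces retinaldehyde, rose by 1.36 ± 0.22 (adjusted p = 0.00353; lost without number 1 of 12 h, 0.062). Stra8, a gene of the switch to meiosis, rose less, from 139 and 156 CPM to 257 and 225 CPM, a log2 change of 0.72 ± 0.20 (adjusted p = 0.0353). Its call was lost without number 1 or 2 of 12 h or number 1 of 24 h (highest adjusted p 0.292).

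Other early targets did not pass the test. Rarb stood at 25.8 and 23.3 CPM at 12 h and at 33.2 and 38.6 CPM at 24 h, a log2 change of 0.55 ± 0.17 that did not pass (adjusted p = 0.0524). Its levels at 0 h were 0.597 and 0.466 CPM and in the DMSO library of 24 h 0.699 CPM. Cyp26a1 stood at 121 and 233 CPM and then at 284 and 245 CPM, a log2 change of 0.70 ± 0.30 (adjusted p = 0.164). The number 2 libraries hardly differed between the times while the number 1 libraries did. Cyp26b1, a second RA-degrading enzyme, had no count in any 0 h library, 32.7 and 13.8 CPM at 12 h and 87.2 and 31.6 CPM at 24 h, where the groups overlapped (adjusted p = 0.107). Cdx1, a caudal-type homeobox gene, was at 48.2 and 36.0 CPM and then at 60.8 and 41.0 CPM (adjusted p = 0.547), before levels of 7.39 and 6.74 CPM at 48 h.

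The RA receptors as a list gave 1 call of 15 higher and 1 lower, with a median of -0.10. This is close to the shares over all genes tested, 6.65% higher and 5.9% lower. Under the leave-outs 0, 0, 0 and 3 were higher and 1, 1, 1 and 3 lower. Rxra, the partner receptor found in most tissues, rose by 0.87 ± 0.22 (adjusted p = 0.0238; lost without number 1 or 2 of 12 h or number 1 of 24 h). Rxrg, its relative, fell from 14.8 and 11.2 CPM to 2.53 and 2.06 CPM, by 2.49 ± 0.31 on the log2 scale (adjusted p = 0.0011), and kept its call under all 4 leave-outs. It had been at 20.5 and 20.7 CPM at 6 h, above the 7.31 and 8.30 CPM of 0 h in numbers 1 and 2, but the 0 h libraries of numbers 3 and 4 had 9.30 and 23.5 CPM. Neither Rara (-0.23 ± 0.17, adjusted p = 0.385) nor Rarg (-0.43 ± 0.14, adjusted p = 0.0582) passed.

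Part of the Hox genes, which give cells their position along the body axis, rose further from 12 to 24 h. In the Hox A cluster 3 of 9 were called higher (median change 0.78), in Hox B 5 of 10 (median 1.24) and in Hox C and D together 3 of 8, with none lower. Under the 4 leave-outs Hox A had 0, 0, 0 and 5 calls, Hox B 2, 4, 3 and 7, and Hox C and D 0, 0, 1 and 4. The Hox C and D genes were close to the floor. Of the 8 tested, 7 had 3 or fewer counts over the libraries of 12 h or of 24 h, and 3 of these at both times. Hoxb1, a 3′ gene of its cluster, stood at 12.4 and 20.1 CPM at 12 h and at 53.8 and 50.8 CPM at 24 h, a log2 change of 1.75 ± 0.25 (adjusted p = 0.00186). Hoxb9, near the 5′ end, stood at 4.76 and 6.28 CPM and then at 29.02 and 29.4 CPM, a change of 2.41 ± 0.22 (adjusted p = 0.000209). Both kept their calls under all leave-outs, and in both the 24 h libraries lay above the 12 h libraries. Hoxb2 rose by 1.46 ± 0.20 (adjusted p = 0.0014) and lost its call without number 1 of 12 h (adjusted p = 0.0507). Hoxc5 went from 2 counts over both 12 h libraries to 100 counts over both 24 h libraries, a 45.1-fold ratio (95% exact interval 12.2 to 377, counting error only). Its call was lost without number 1 or 2 of 12 h (highest adjusted p 0.0567). Antisense transcripts run across many Hox genes, and how HTSeq was told to treat strand is not given in the sources used here, so that sense and antisense reads cannot be told apart.

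Genes called in the first 6 h of RA give a group of early responders chosen by a contrast of 0 h and 6 h. The contrast of 24 h with 12 h uses other libraries but comes from the same model, with a shared replicate term and estimate of spread, so that the counts are a description and not independent evidence. Of the 579 genes higher at 6 h (3.78% of those tested), 438 (75.6%) were not called from 12 to 24 h, 77 (13.3%) rose and 64 (11.1%) fell. The shares over all genes tested were 6.65% and 5.9%. Their median change was -0.038. Without the 4 libraries in turn 26, 41, 94 and 297 of the early risers then defined were called. Without the number 2 library of 0 h the count was 78, and without a 6 h library 67 or 63. Of the 228 genes lower at 6 h (1.49%), 47 (20.6%) rose and 17 (7.46%) fell from 12 to 24 h, with a median of 0.231.

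Some early risers went on rising. The examples with the largest changes, chosen after their values were seen, included Ptges, Sdk2, Zfp503, Ddc, 2610028E06Rik, Hoxb1 and Pmp22. The calls of Sdk2 (without number 2 of 12 h or number 1 of 24 h), Zfp503 (without number 1 of 12 h) and 2610028E06Rik (without either 12 h library) were lost. Ptges, prostaglandin E synthase, went from 12.0 and 5.81 CPM to 54.3 and 23.6 CPM, a change of 2.10 ± 0.21 (adjusted p = 0.000314). Ddc, which makes dopamine and serotonin, went from 13.2 and 13.7 CPM to 43.9 and 47.8 CPM, a change of 1.77 ± 0.18 (adjusted p = 0.000322). Neither gene overlapped between the times, and each kept its call under all leave-outs.

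Other early risers were falling again by 24 h: Rxrg, Nt5e, Notch4, Arhgef26, Eras, Kcnh7, Fam81a and Dppa2 were the largest, again chosen after their values were seen. Kcnh7 lost its call without number 1 of 12 h or of 24 h, and Fam81a without either 12 h library or number 1 of 24 h. Notch4, a receptor of the Notch family, was at 37.0 and 29.1 CPM at 0 h, 119 and 116 CPM at 6 h, 69.2 and 52.8 CPM at 12 h and 25.96 and 21.5 CPM at 24 h. Its log2 change from 12 to 24 h was -1.35 ± 0.18 (adjusted p = 0.00118). Eras, a Ras-like gene of embryonic stem cells, was at 67.0 and 80.3 CPM at 0 h (109 and 99.8 CPM in numbers 3 and 4), 174 and 155 CPM at 6 h, 118 and 114 CPM at 12 h and 49.7 and 50.3 CPM at 24 h (log2 change from 12 h -1.21 ± 0.19, adjusted p = 0.0029). Dppa2, a chromatin factor of pluripotent cells, fell from 117 and 121 CPM to 51.0 and 63.7 CPM, by 1.05 ± 0.14 on the log2 scale (adjusted p = 0.00118). These 3 genes kept their calls under all leave-outs. Dppa2 had stood at 61.9 and 57.2 CPM at 0 h in numbers 1 and 2, close to its level at 24 h. In numbers 3 and 4 of 0 h it stood at 77.6 and 70.4 CPM, above both 24 h libraries. Nt5e, a cell surface enzyme that makes adenosine, was at 45.8 and 77.6 CPM at 12 h and 17.1 and 30.4 CPM at 24 h (-1.38 ± 0.25, adjusted p = 0.00735; lost without number 1 or 2 of 12 h or number 1 of 24 h).

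**Figure D2:**
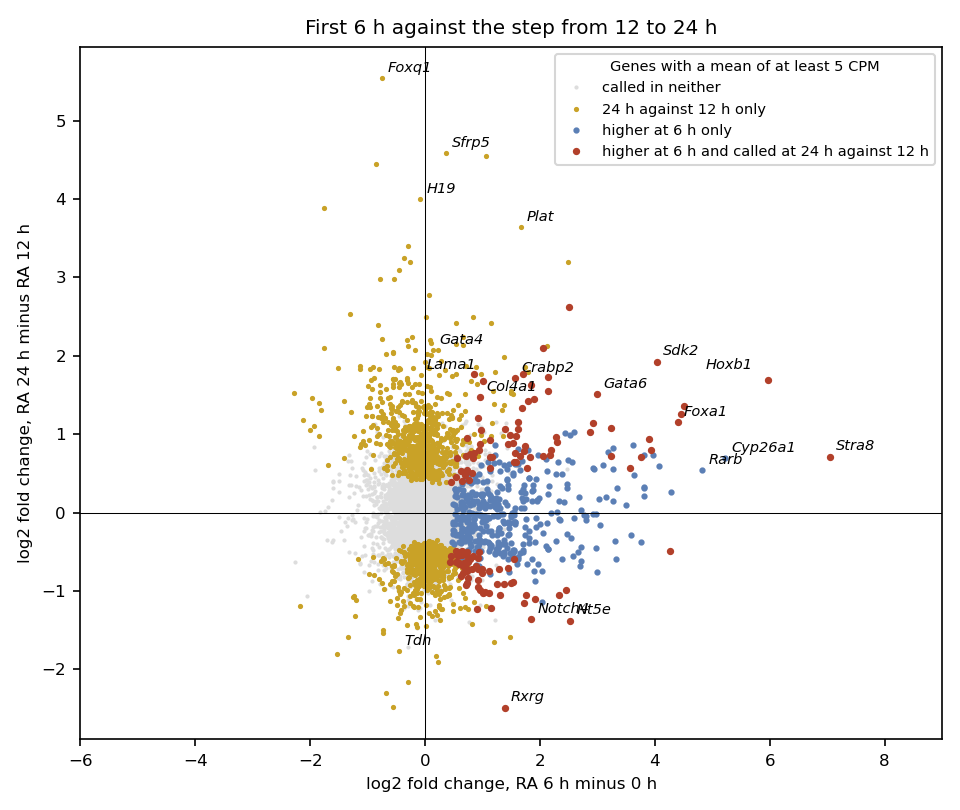
Fitted log2 change from 0 to 6 h of RA (x axis) against that from 12 to 24 h (y axis), 1 point per gene averaging 5 CPM or more and with more than 3 counts at 0 h in numbers 1 and 2 (11327 of 11344 genes). The early targets Rarb, Cyp26a1 and Stra8 sit far to the right near the horizontal axis, while Foxq1, Sfrp5, H19 and Plat sit high near the vertical axis. Both changes come from 1 model of 10 libraries, with a shared replicate term and estimate of spread.

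A test of the difference between both steps, (24 h minus 12 h) minus (12 h minus 0 h), called 633 genes. Signs count: 229 (1.49%) had a difference above 0, termed a larger second step, and 404 (2.64%) one below 0, termed a smaller one. Genes that turned to fall after 12 h are thus among the smaller ones, such as Ccng1 (log2 change 0.14 to 12 h, then -0.78). Genes whose fall slowed are among the larger ones, such as Dnmt3l (-1.67, then -0.32). Of the early RA target list 13 of 21 had a smaller second step and none a larger one, a count that the choice of genes known to be induced early largely fixes. Crabp2 was among these with a difference of -1.85 (adjusted p = 0.00221) although it still rose. Rarb (adjusted p = 4.21e-05) and Stra6 (adjusted p = 0.000319) were called as well, and so were the 6 genes with the lowest fitted differences among those that averaged 5 CPM or more at 12 h and 24 h, Cyp26b1, Hoxb4, Hoxb5, Stra8, Hoxa5 and Hoxa4. These 8 genes had 0 to 9 counts at 0 h in numbers 1 and 2, so that the size of the difference is not given. Under the same condition, larger second steps were led by Egflam, H19, Crb2, Igf2, Aebp1 and Pcdh1. Egflam, a matrix protein, had a difference of 5.63 (adjusted p = 0.00875), and Pcdh1, a protocadherin, had one of 3.46 (adjusted p = 0.000726). Among basement membrane genes Lamb1 (2.04, adjusted p = 0.000419) and Lama1 (1.29, adjusted p = 0.0197) had larger second steps, whereas Col4a1 (-0.04, adjusted p = 0.972) was not called. Among endoderm factors Gata6 (-2.82, adjusted p = 0.021) and Foxa1 (adjusted p = 0.00011, with 8 counts at 0 h) had smaller second steps. With each library of 0, 12 and 24 h left out in turn, Rarb, Stra6, Foxa1, Pcdh1 and Lamb1 kept these calls. Crabp2 lost its call without number 2 of 12 h (adjusted p = 0.0823), Egflam without either 12 h library (highest 0.0944), Aebp1 without either 12 h library (highest 0.138), Crb2 and H19 without either 12 h library or number 2 of 0 h (highest 0.345 and 0.349), Igf2 without any of the 6 libraries (highest 0.298), Lama1 without either 12 h library or number 1 of 0 h (highest 0.481), and Gata6 without either 12 h library, number 2 of 0 h or number 1 of 24 h (highest 0.361). The number of calls was 63, 91, 774 and 2676 under the 4 leave-outs, 264 without number 2 of 0 h, and 396 and 413 without either 6 h library.

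Of the 24 endoderm transcription factors tested 8 rose, 1 fell and 15 were not called, with a median change of 0.51. Calls of increase under the 4 leave-outs were 3, 4, 5 and 10. Gata4, a zinc-finger factor of primitive endoderm, stood at 25.6 and 12.9 CPM at 12 h and at 136 and 39.5 CPM at 24 h, a log2 change of 2.07 ± 0.27 (adjusted p = 0.00199). The 24 h libraries were above both 12 h libraries, and the DMSO library of 24 h had 12.4 CPM. Gata6, its close relative, began earlier, with 3.58 and 0.653 CPM at 0 h, and went from 56.2 and 23.4 CPM to 129.6 and 85.3 CPM (log2 change 1.52 ± 0.27, adjusted p = 0.00812). Its call was lost without number 1 or 2 of 12 h or number 1 of 24 h (highest adjusted p 0.0927). Foxa1, a factor that opens chromatin in endoderm, rose from 22.5 and 20.3 CPM to 47.8 and 47.3 CPM (1.15 ± 0.16, adjusted p = 0.00183) and kept its call throughout.

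Several of these factors were still low at 12 h. Sox17, a factor of primitive and definitive endoderm, stood at 0.595 and 0.187 CPM at 12 h, 6.44 and 1.03 CPM at 24 h and 78.5 and 30.3 CPM at 48 h. Foxa2 stood at 1.07 and 0.0937 CPM at 12 h and at 8.86 and 2.40 CPM at 24 h. Their changes to 24 h were 3.10 ± 0.52 (adjusted p = 0.00429) and 3.26 ± 0.66 (adjusted p = 0.0115), and both calls were lost without number 1 of 12 h or number 1 of 24 h (highest adjusted p 0.129 and 0.11), that of Foxa2 also without number 2 of 12 h. Foxq1, another forkhead factor, showed the largest increase named by rule, from 1.31 and 0.375 CPM to 70.9 and 15.3 CPM (5.54 ± 0.65, adjusted p = 0.00243; lost without number 1 or 2 of 12 h). Zfpm1, a partner of GATA factors, rose from a mean of 11.9 to 76.3 CPM (2.50 ± 0.40, adjusted p = 0.00664; lost without either 12 h library). Nr5a2, which also serves pluripotency, was the member that fell, from a mean of 50.7 to 27.6 CPM (-0.91 ± 0.26, adjusted p = 0.0419; lost without either 12 h library or number 1 of 24 h). Sox7 was already at 83.5 and 57.3 CPM at 0 h, with 39.4 and 34.9 CPM in numbers 3 and 4 of 0 h. It was at 136 and 125 CPM at 12 h and at 161 and 158 CPM at 24 h (0.29 ± 0.14, adjusted p = 0.177). The motif AGATAA, bound by factors such as Gata4, was searched on either strand. It was in 5.81% of the 1067 promoter windows of genes higher at 24 h and in 5.72% of all windows of tested genes. For the forkhead motif TGTTTAC these shares were 1.78% and 2.13%. The windows hold only bases just before the start sites and covered 774 of the 1018 higher genes. Only these exact patterns were searched, and binding of these factors was not tested. The shares therefore say little about sites of these factors.

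Of primitive endoderm genes 15 of 22 were higher and none lower, with a median change of 1.44. All 22 changes were above 0, and 7, 9, 7 and 14 were called under the leave-outs. The summed level of the list was 2348 and 1706 CPM at 12 h and 4278 and 2996 CPM at 24 h. Pdgfra, the receptor that marks primitive endoderm, stood at 3.69 and 1.59 CPM at 12 h and at 20.6 and 6.00 CPM at 24 h (2.24 ± 0.37, adjusted p = 0.00464; lost without number 1 of 12 h or of 24 h). Dab2, an adaptor of endocytosis, stood at 3.21 and 1.87 CPM at 12 h and at 23.8 and 11.8 CPM at 24 h, ahead of 575 and 618 CPM at 48 h. Its change of 2.78 ± 0.70 (adjusted p = 0.0406) was lost without any of the 4 libraries (highest adjusted p 0.392). In such bulk libraries a larger share of cells with a gene on and more RNA per cell cannot be told apart.

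Basement membrane genes rose in part, with 8 of 23 called higher, none lower and a median of 0.63. Under the leave-outs 5, 5, 6 and 8 were called. Lama1, the alpha chain of laminin-111, stood at 125 and 63.8 CPM at 12 h and at 465 and 196 CPM at 24 h, a log2 change of 1.76 ± 0.15 (adjusted p = 0.00012). Lamb1, its beta chain, stood at 48.7 and 40.7 CPM and then at 137 and 92.7 CPM (1.34 ± 0.13, adjusted p = 0.000209). In both chains the 24 h libraries lay above the 12 h libraries. Lamc1, the gamma chain, did not pass at 404 and 331 CPM and then 426 and 428 CPM (0.23 ± 0.13, adjusted p = 0.264). Lamb1 had stood at 79.4 and 65.5 CPM at 0 h, above both 12 h libraries, and at 86.6 CPM in the DMSO library of 24 h, where Lama1 had 84.0 CPM.

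Collagen IV, the network-forming collagen of basement membranes, rose in both of its main chains. Col4a1 stood at 241 and 107 CPM at 12 h and at 538 and 376 CPM at 24 h (1.48 ± 0.21, adjusted p = 0.00282), and Col4a2 at 154 and 48.1 CPM and then at 386 and 202 CPM (1.68 ± 0.23, adjusted p = 0.00293; lost without number 1 of 24 h, 0.0676). Hspg2, the proteoglycan perlecan, rose from a mean of 178 to 352 CPM (0.99 ± 0.13, adjusted p = 0.0011). Nid1 and Nid2, which link laminin to collagen IV, had changes of -0.03 and 0.05 that did not pass. Sparc, a collagen-binding protein abundant in parietal endoderm, stood at 584 and 402 CPM at 12 h and at 720.4 and 419 CPM at 24 h (0.18 ± 0.13, adjusted p = 0.378), and reached 1979.5 and 991 CPM at 48 h.

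Enzymes and chaperones that fold and crosslink collagen also rose in part, with 9 of 20 higher, none lower and a median of 0.58. Under the leave-outs 2, 3, 4 and 12 were called. Serpinh1, the collagen chaperone HSP47, stood at 199 and 179.8 CPM at 12 h and at 523 and 402 CPM at 24 h (1.27 ± 0.13, adjusted p = 0.00039). Its groups did not overlap and its call held under every leave-out, but not with the library set as the model's term in place of the replicate number (adjusted p = 0.0852). Pxdn, the peroxidase that crosslinks collagen IV, went from 15.1 and 13.7 CPM to 36.6 and 49.9 CPM (1.58 ± 0.21, adjusted p = 0.00118). P4ha2, a prolyl hydroxylase, rose by 1.13 ± 0.20 (adjusted p = 0.00613; lost without number 1 of 12 h).

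Markers of the next stage were mixed. Of the parietal endoderm list 6 of 21 were higher and none lower (median 0.50), with 1, 1, 1 and 7 calls of increase under the leave-outs. Plat, tissue plasminogen activator, stood at 1.67 and 1.78 CPM at 12 h, 29.3 and 15.7 CPM at 24 h and 128 and 123 CPM at 48 h, against 1.12 CPM in the DMSO library of 24 h. Its change of 3.64 ± 0.28 (adjusted p = 8.42e-05) held under every leave-out. Thbd, thrombomodulin, did not pass at 0.476 and 0.0937 CPM and then 0.106 and 1.20 CPM (adjusted p = 0.534), and the pairs moved in opposite directions. Fst, follistatin, was at 0 and 0.750 CPM at 12 h and at 0 and 0.514 CPM at 24 h.

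Visceral endoderm genes gave 2 calls of 15 tested, with none lower and 0, 1, 2 and 2 calls of increase under the leave-outs. Over all genes tested 6.65% were higher. The calls were Lefty1, a Nodal inhibitor (1.76 ± 0.33, adjusted p = 0.0129; lost without either 12 h library or number 1 of 24 h), and Dkk1, a Wnt inhibitor (3.66 ± 0.56, adjusted p = 0.00313; lost without number 1 of 12 h). Ttr, which carries thyroid hormone, had 0 counts in all 4 libraries, and Afp, alpha-fetoprotein, was too low to be tested. Hnf4a went from a mean of 1.98 to 4.22 CPM and Cubn, the absorptive receptor cubilin, from 2.01 to 4.49 CPM, and neither passed (adjusted p = 0.122 and 0.177).

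Keratins and adhesion genes hold epithelial cells together. Of the list of keratins and actin cytoskeleton 4 of 21 were higher, with 0, 0, 1 and 6 calls under the leave-outs, and of integrins and adhesion 5 of 22, with 1, 2, 3 and 5. None was lower in either. Krt18 stood at 0.476 and 2.34 CPM at 12 h and at 4.75 and 7.37 CPM at 24 h (2.19 ± 0.41, adjusted p = 0.00716; lost without either 12 h library), and Krt8, its partner, rose by 1.36 ± 0.29 (adjusted p = 0.0136; lost without either 12 h library or number 1 of 24 h). Dsp, desmoplakin, which ties keratins to desmosomes, went from 51.1 and 86.0 CPM to 137 and 197 CPM (1.31 ± 0.17, adjusted p = 0.00126) and kept its call.

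Other large increases were chosen among genes that averaged 5 CPM or more. Sfrp5, a secreted Wnt antagonist, stood at 3.21 and 5.90 CPM at 12 h and at 132 and 91.2 CPM at 24 h, a log2 change of 4.58 ± 0.28 (adjusted p = 2.18e-05). It was 2.52 CPM in the DMSO library of 24 h, and its call held in every leave-out and without a replicate term (adjusted p = 0.000899). Gpr50, an orphan receptor, went from 1.79 and 0.937 CPM to 59.0 and 13.3 CPM (4.55 ± 0.53, adjusted p = 0.00144; lost without number 1 of 12 h). Mmp15, a membrane-bound protease, went from 5.48 and 5.90 CPM to 66.2 and 34.2 CPM (3.09 ± 0.28, adjusted p = 0.000236) and kept its call throughout. Amot, which binds the Hippo effector YAP, went from 5.48 and 9.84 CPM to 88.8 and 53.5 CPM (3.24 ± 0.43, adjusted p = 0.00411; lost without number 1 of 12 h).

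**Figure D3:**
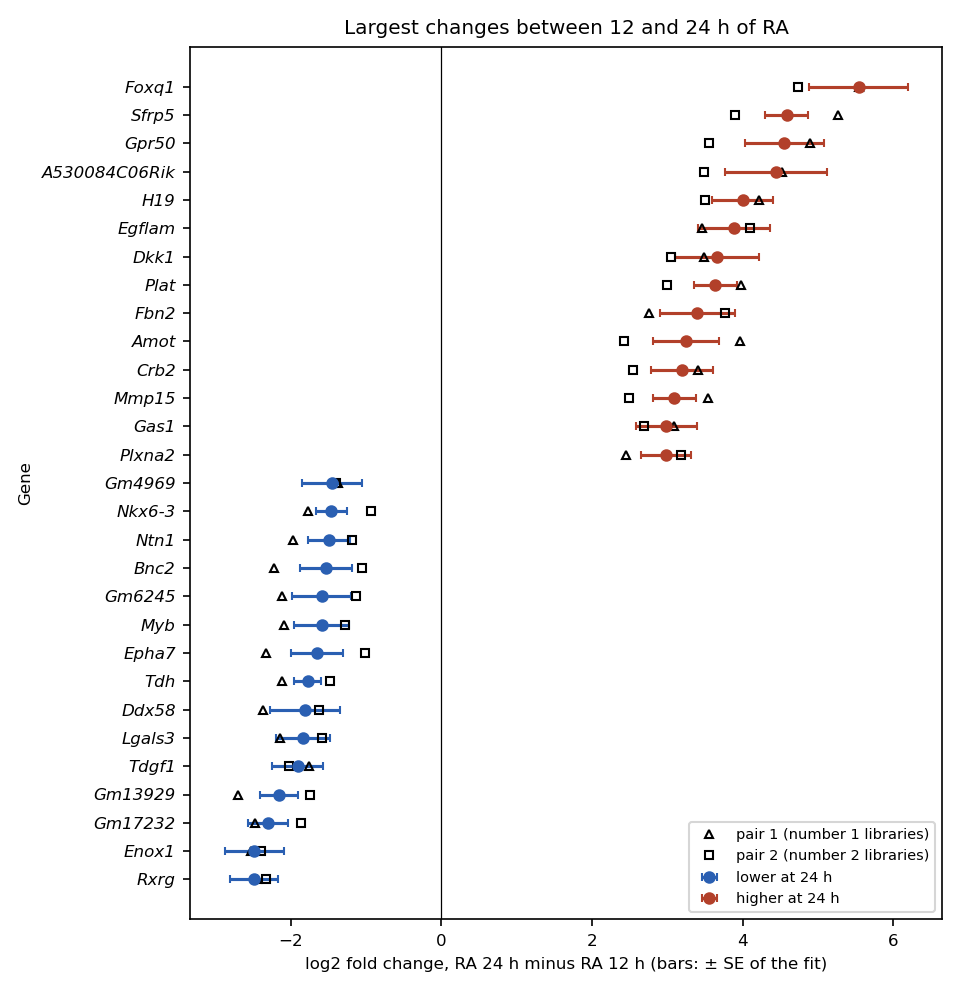
The largest increases (14 shown) and the 15 largest decreases from 12 to 24 h among called genes with a symbol, a mean of at least 5 CPM and the same direction in both pairs. Filled points are the fitted log2 change with bars of ± 1 SE, open triangles the number 1 pair and open squares the number 2 pair. Foxq1 (5.54) and Sfrp5 (4.58) lead the increases, and Rxrg (-2.49) and Enox1 (-2.48) the decreases.

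Endoderm cells secrete matrix and take up protein. Of 28 genes of folding and export in the endoplasmic reticulum 9 were higher, none lower and 19 not called (median 0.33), and of 25 lysosome and endocytosis genes 9 were higher, none lower and 16 not called (median 0.47), beside 6.65% higher over all genes. Under the leave-outs the former had 2, 2, 6 and 9 calls and the latter 1, 3, 6 and 9. Creb3l2, a transcription factor of secretory cells, went from 11.4 and 8.62 CPM to 34.2 and 27.3 CPM (1.62 ± 0.17, adjusted p = 0.000433). Sec24d, a coat protein of vesicles that carry procollagen, went from 45.0 and 43.0 CPM to 88.1 and 103 CPM (1.11 ± 0.15, adjusted p = 0.00139). Gaa, lysosomal alpha-glucosidase, went from 30.5 and 22.1 CPM to 61.2 and 51.0 CPM (1.10 ± 0.14, adjusted p = 0.00118). In these 3 genes the 24 h libraries lay above the 12 h libraries, and all 3 kept their calls under every leave-out.

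Calls in the signalling lists went both ways, beside 6.65% higher and 5.9% lower over all genes tested. In the Wnt list 4 of 27 were higher and none lower, among them the antagonists Sfrp5 and Dkk1 and the receptor Fzd2 (1.84 ± 0.29, adjusted p = 0.0032; lost without number 1 of 12 h). The FGF list had 4 higher and 4 lower of 23. Flrt3, an FGF receptor partner, rose from 6.31 and 4.87 CPM to 22.9 and 17.4 CPM (1.85 ± 0.23, adjusted p = 0.00101) and kept its call. Fgf4, the ligand made by pluripotent cells, fell from 84.3 and 153.8 CPM to 31.9 and 73.9 CPM (-1.20 ± 0.25, adjusted p = 0.0154; lost without either 12 h library or number 1 of 24 h). Spry4 and Etv4, genes switched on by FGF signalling, fell by 0.93 and 0.83 on the log2 scale (adjusted p = 0.00293 and 0.00441; that of Etv4 lost without number 1 of 12 h, 0.0668). The BMP list had 4 higher and 2 lower of 22, with Bmp4 falling from 261 and 119 CPM to 99.7 and 55.5 CPM (-1.23 ± 0.21, adjusted p = 0.00574; lost without number 2 of 12 h) and its target Id3 falling by 1.00 on the log2 scale (adjusted p = 0.00161). The Nodal list had 4 higher and 2 lower of 18. Calls of increase under the leave-outs were 1, 3, 3 and 7 for Wnt, 1, 1, 1 and 5 for FGF, 1, 0, 1 and 6 for BMP and 0, 0, 1 and 5 for Nodal. Calls of decrease were 1, 2, 2 and 5 for FGF, 2, 1, 3 and 5 for BMP and 0, 0, 2 and 2 for Nodal.

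Pluripotency genes fell in part: 10 of 38 were lower and 1 (Lefty1) was higher, with a median change of -0.39. Under the leave-outs 2, 3, 4 and 16 were lower. Tdh, threonine dehydrogenase, on which mouse embryonic stem cells depend, stood at 515 and 358 CPM at 0 h, 181 and 151 CPM at 12 h and 41.7 and 54.1 CPM at 24 h, against 508 CPM in the DMSO library of 24 h. Its change from 12 h was -1.77 ± 0.18 (adjusted p = 0.000314) and held under all leave-outs. Tdgf1, the Nodal co-receptor Cripto, stood at 199 and 252 CPM at 12 h and at 59.0 and 61.7 CPM at 24 h (-1.90 ± 0.34, adjusted p = 0.0114), and its call was lost without any of the 4 libraries (highest adjusted p 0.233). Its groups did not overlap.

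Core factors of pluripotency had smaller fitted changes. Nanog stood at 356 and 552 CPM at 12 h and at 229 and 345 CPM at 24 h (-0.66 ± 0.16, adjusted p = 0.0238), and Sox2 at 425 and 435 CPM and then at 271 and 279 CPM (-0.64 ± 0.17, adjusted p = 0.033). Both calls were lost without either 12 h library or number 1 of 24 h. Pou5f1 (Oct4) stood at 1898 and 1346 CPM and then at 1582 and 940.2 CPM, a change of -0.39 ± 0.16 that did not pass (adjusted p = 0.125). The 12 h and 24 h libraries of Pou5f1 overlapped. Zfp42, Esrrb and Klf4 had changes of -0.45, -0.32 and 0.70 and did not pass either.

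Of a list of Myc and ribosome biogenesis genes 18 of 26 were lower, Myc among them, and none higher, with a median of -0.54. Of the 26 changes 25 were below 0, and 1, 7, 12 and 19 were called lower under the leave-outs. The list's summed level was 8811 and 9000.0 CPM at 12 h and 5587 and 6238 CPM at 24 h. Myc, the factor that drives this programme, stood at 279 and 132 CPM at 0 h, 127 and 53.5 CPM at 12 h and 52.97 and 28.4 CPM at 24 h. The change from 12 h was -1.09 ± 0.14 (adjusted p = 0.00118) and held under all leave-outs, while its groups touched closely, the number 1 library of 24 h being just below the number 2 library of 12 h. Ddx21, a helicase of rRNA processing, went from 584 and 601 CPM to 214 and 388 CPM (-1.02 ± 0.18, adjusted p = 0.00695), and Heatr1, which acts in rRNA transcription, went from 287 and 237 CPM to 116 and 155 CPM (-0.95 ± 0.15, adjusted p = 0.00372). Both lost their calls without number 1 of 12 h. The E-box CACGTG, which Myc binds, was in 9.35% of the 802 promoter windows of genes lower at 24 h. It was in 6.84% of the 1067 windows of genes higher at 24 h and in 8.34% of all windows of tested genes. The windows covered 672 of the 903 lower genes, and binding of Myc was not tested. Cytosolic ribosomal protein genes, a list chosen after the data were seen, had 1 lower of 76 (0, 0, 0 and 6 under the leave-outs), and mitochondrial ones 7 lower of 76 (0, 0, 6 and 7), with a median of -0.17 in each. Over all genes tested 5.9% were lower.

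Some cell cycle genes fell. Of the S phase list 6 of 30 were lower, of the mitosis list 3 of 25 and of the G1 cyclin list 3 of 11, with none higher and 24, 22 and 8 not called, beside 5.9% of all genes called lower. Calls of decrease were 0, 0, 0 and 9 for S phase, 0, 0, 0 and 7 for mitosis and 0, 0, 0 and 4 for G1 cyclins under the leave-outs, so that none was left without either 12 h library or number 1 of 24 h. Rrm2, a subunit of ribonucleotide reductase, stood at 572 and 648 CPM at 12 h and at 281 and 462 CPM at 24 h (-0.74 ± 0.15, adjusted p = 0.0102). Ccne1, cyclin E1, stood at 198 and 223 CPM and then at 112 and 163 CPM (-0.63 ± 0.13, adjusted p = 0.0109). In both genes the 24 h libraries lay below the 12 h libraries. Of inhibitors and p53 targets 1 of 25 was higher (Cdkn2a, 1.37 ± 0.31, adjusted p = 0.0156; lost without either 12 h library or number 1 of 24 h) and 4 were lower (0, 3, 2 and 5 under the leave-outs), among them Ccng1 (-0.78 ± 0.13, adjusted p = 0.00495; lost without number 1 of 12 h). The share of all genes called higher was 6.65%.

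**Figure D4:**
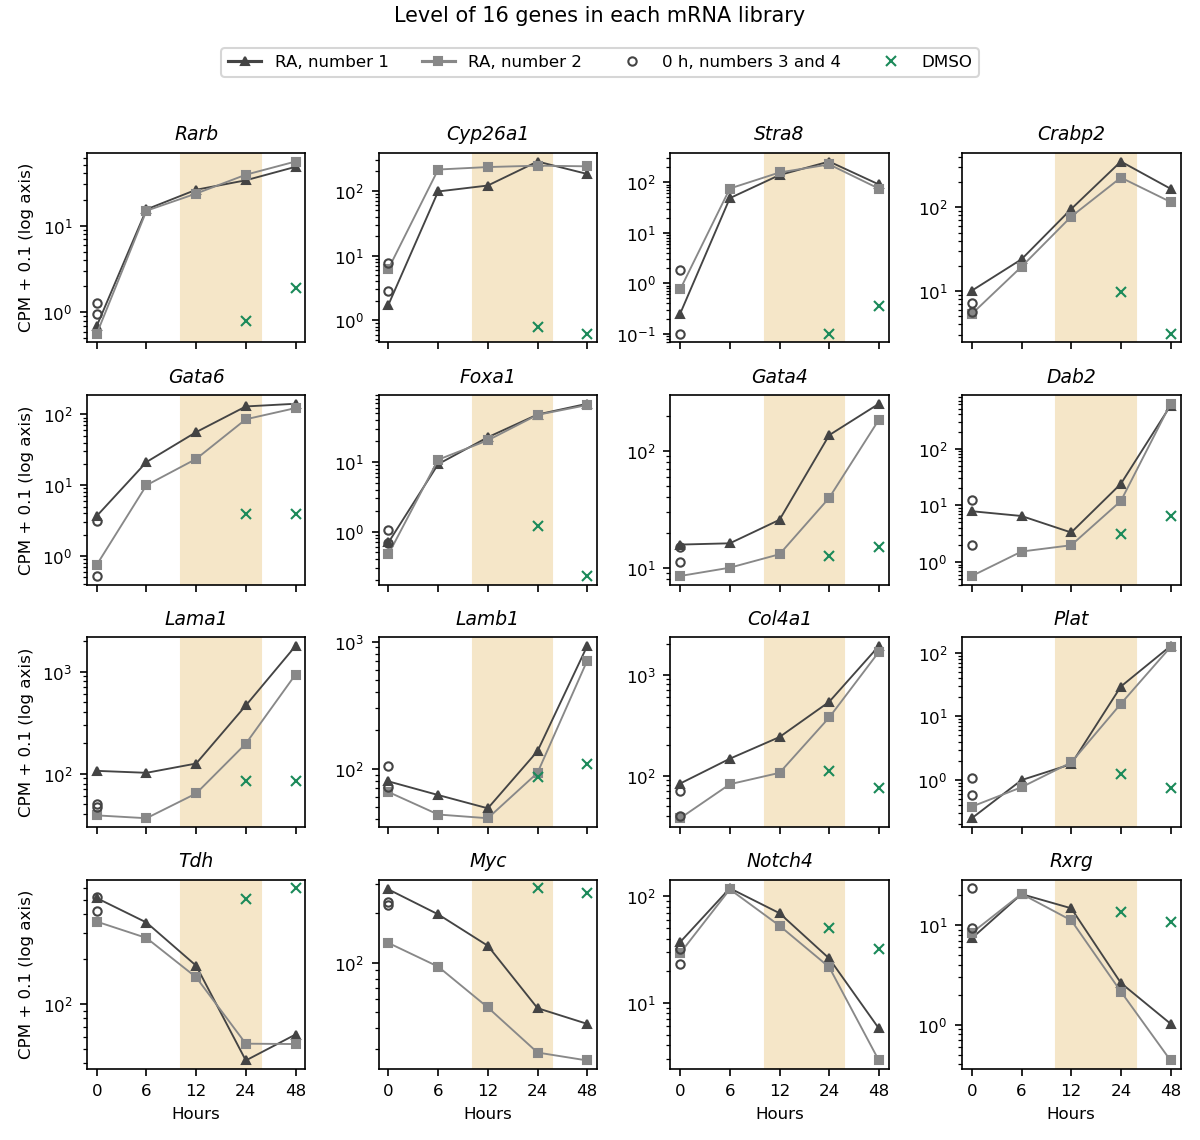
CPM + 0.1 (log axis) of 16 genes in each mRNA library against hours (times evenly spaced), with RA number 1 as triangles, RA number 2 as squares, 0 h numbers 3 and 4 as open circles and DMSO as crosses. Shading marks 12 to 24 h. Rarb and Cyp26a1 were not called there, Gata4, Lama1 and Plat climb, Tdh and Myc fall, and Notch4 and Rxrg are lower at 24 h than at 6 h and 12 h.

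Markers of other lineages are set beside the 6.65% of all genes called higher. Of neural markers 2 of 11 tested were higher (0, 0, 0 and 2 under the leave-outs), Tubb3 (0.48 ± 0.13, adjusted p = 0.0303) and Nes (0.74 ± 0.19, adjusted p = 0.0281), both lost without either 12 h library or number 1 of 24 h. The neural factors Neurog2 and Neurod1 were too low to be tested, and the summed neural level was 379 and 339 CPM at 12 h and 470.3 and 336 CPM at 24 h. Of 11 mesoderm markers 0 were called by edgeR (3 at an unadjusted p under 0.05) and 0 by DESeq2, and their summed level was 404 and 164 CPM and then 335 and 160.0 CPM. Trophoblast markers gave 1 call of 11 (Krt8; 0, 0, 0 and 3 higher under the leave-outs), with sums of 38.3 and 94.5 CPM and then 47.4 and 85.8 CPM, and fibroblast markers 1 of 6 (0, 0, 0 and 1 higher under the leave-outs; Col5a1, 1.19 ± 0.30, adjusted p = 0.0238; lost without either 12 h library or number 1 of 24 h), with sums of 468 and 459 CPM and then 329 and 499 CPM. Col1a2, Col3a1, Dcn and Lum were too low to be tested.

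**Figure D5:**
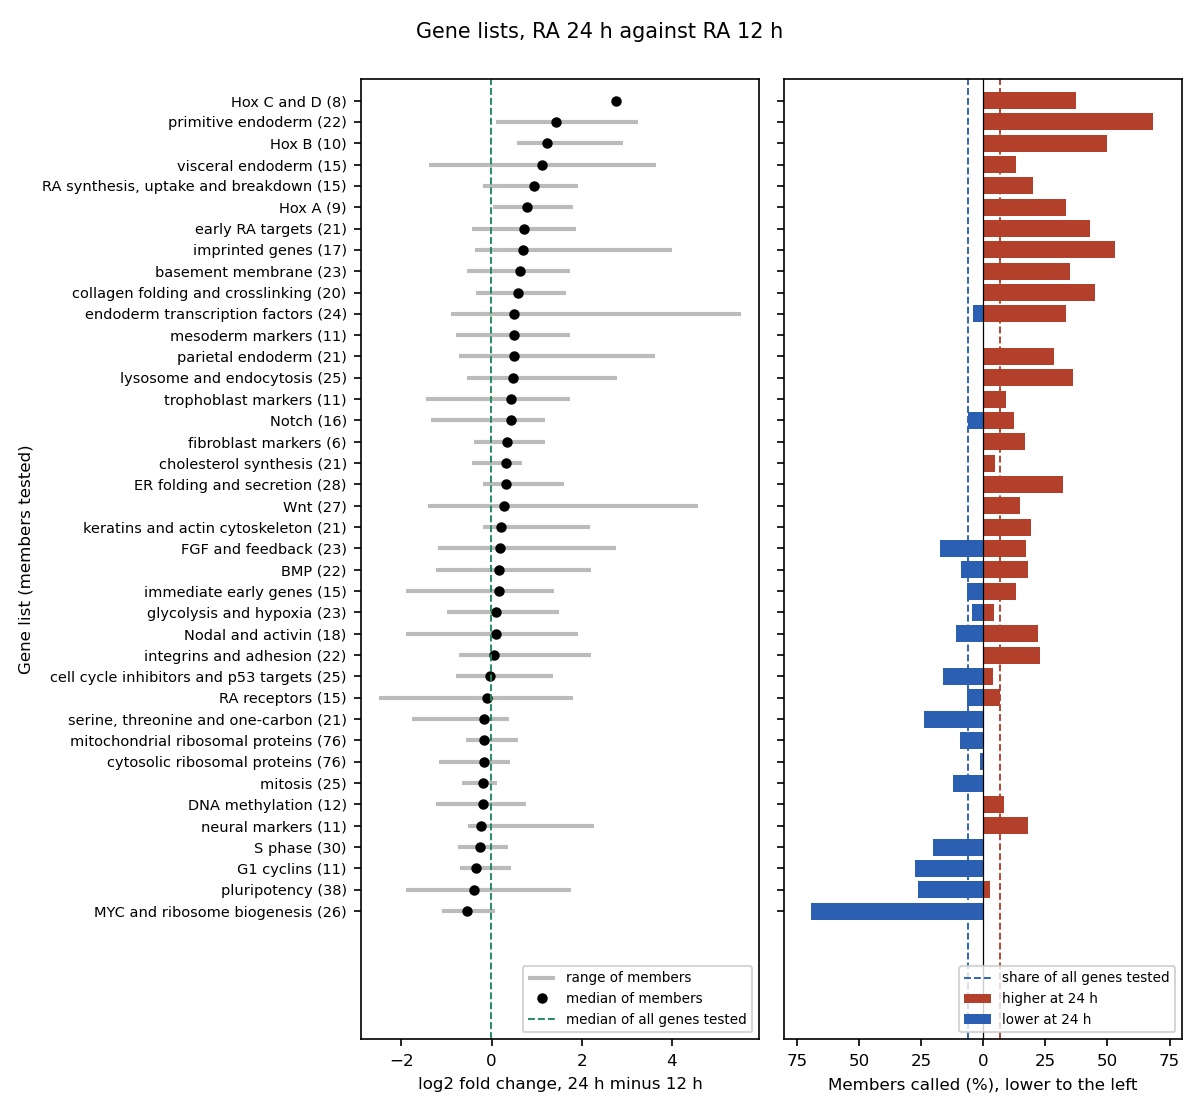
Left, the log2 change from 12 to 24 h of the tested members of each gene list, with the range of members that had more than 3 counts at both times as a bar, the median as a point and the median of all genes tested as a dashed line. Members with 3 or fewer counts at a single time enter the median as a ratio of counts or a bound, and those with 3 or fewer at both times are left out of it. Right, the percent of tested members called higher (red, to the right) and lower (blue, to the left), with the shares of all genes tested, 6.65% and 5.9%, as dashed lines. Primitive endoderm genes have the largest share of increases and the list of Myc and ribosome biogenesis the largest share of decreases.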

How the data were processed

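Messenger RNA of F9 cells was sequenced as single-end reads (TruSeq libraries, on GAIIx or HiSeq instruments, with no record of which library ran on which), per the labels' protocols. The authors deposited raw HTSeq counts per gene, made with TopHat2 2.0.7 on mm9, per the submitters' processing notes. Between 72.52 and 76.78% of the counted reads of a library went to rows that name no gene and were left out. Symbols came from the gene name table (31841 of 36814 genes).

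Counts were fitted with edgeR 4.0.16 (R 4.3.3): filterByExpr, TMM factors over all 14 mRNA libraries, glmQLFit (robust) and glmQLFTest on numbers 1 and 2 of 0, 6, 12, 24 and 48 h (10 libraries, 4 residual degrees of freedom), with time and replicate number as terms, and Benjamini-Hochberg adjustment over 15318 genes. The number pairs the libraries: over the 10 pairs of times the number 1 minus number 2 deviations correlated with r from 0.763 to 0.908 over 11350 genes. Pair differences are of log2 CPM with a prior count of 2. On simulated counts for the comparison of 24 h with 12 h (15045 genes) 61% of 100 2-fold and 89% of 100 4-fold changes were recovered, and 15 unchanged genes were called. The simulation used the fitted spread and the same change in both pairs. It therefore does not test the difference between the pairs seen in the data.

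Genes named by rule are the 15 largest increases and 15 largest decreases (called, a symbol, a mean of at least 5 CPM, both pairs in that direction), 42 fixed genes, up to 4 called members of each of 39 lists and 6 genes each way for the contrast of both steps; other genes are further members of those lists or are said to be chosen after their values were seen. The comparison, the lists and the fixed genes were chosen with earlier results of these data known. Alternatives were RLE size factors, DESeq2 1.42.0, other filters, no replicate term, library set as the term, fewer libraries and a fold threshold. A fold against 3 or fewer counts is a ratio of counts with an exact 95% interval. Promoter windows came from RefSeq, with entries for 10468 of the 15318 genes. Some genes that the rule names are not reported here.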

Additional observations from a re-analysis of the deposited data

Results flagged for a closer look

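In a group of 4 libraries a value was singled out when its gap to the nearest other library, as a share of the whole range, passed the critical value of Dixon's test. Only 0 h has 4 libraries, and of 42 fixed genes looked at there 3 met this. Chance gives about 1 in 20 for 4 like libraries with normal values, which these need not be. Number 1 of 0 h differed from the other 3 in its share of reads with no feature (57.65% against 52.51 to 53.12%). None of these libraries belongs to 12 h or 24 h. Foxa2 stood at 0.597 CPM in the number 1 library of 0 h and at 0.186 to 0.211 CPM in the other 3, with 10 counts over the 4 libraries. Hoxb1 stood at 0.976 CPM in the number 4 library of 0 h, which does not enter the fit, and at 0.149 to 0.211 CPM in the others. Nanog stood at 411 CPM in the number 2 library of 0 h and at 271 to 291 CPM in the others.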

How the results depend on the processing

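The comparison of 24 h with 12 h called 1921 genes, 2041 with RLE size factors, 1962 with DESeq2 and 2321 with no low-count filter. It called 5 (3 higher, 2 lower) with no replicate block over 14 libraries, 1008 with library set as the term, 1033 with the 12 h and 24 h libraries alone and 628 with a log2 change of at least 1, and 135 to 3909 with 1 library left out. Of the 1921 genes 1906 were also called with RLE size factors, 1765 with DESeq2 and 1004 with the set term. The contrast of both steps called 633 genes, 1040 with no low-count filter, 31 with no replicate block and 63 to 2676 with 1 library left out. The comparison of 6 h with 0 h called 807 genes, 271 with no replicate block, 500 with a log2 change of at least 1 and 342 to 1232 with 1 library left out. Calls among early risers were 141, none (0) with no replicate block and 26 to 297 with 1 library left out. Of the 156 named genes called, 155 were called with DESeq2, 119 with the set term and 5 with no replicate block. Changes of sign were seen for Fst without number 2 of 12 h (3.42; -3.93 without number 2 of 24 h) and for Thbd without number 2 of 12 h (-0.37) or of 24 h (-1.13; 3.06 without number 1 of 12 h), both not called and at few counts. The cause was not tested beyond what a smaller number of libraries gives by construction. Genes near 1 CPM rest on about 10 counts a library.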

Other observations

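Imprinted genes, which are expressed from the allele of a single parent, gave 9 increases of 17 tested from 12 to 24 h, no decrease and a median log2 change of 0.70. With number 1 or 2 of 12 h, or number 1 or 2 of 24 h, left out in turn, 4, 2, 3 and 7 were called higher by edgeR. H19, a long noncoding RNA, stood at 3.33 and 4.78 CPM at 12 h and at 65.9 and 56.2 CPM at 24 h, a change of 4.00 ± 0.40 (SE; adjusted p = 0.0011). Its neighbour Igf2, a growth factor, stood at 5.00 and 3.19 CPM and then at 21.7 and 20.5 CPM (2.39 ± 0.39, adjusted p = 0.00571; lost without number 2 of 12 h or number 1 of 24 h). Grb10, which dampens insulin and IGF signalling, stood at 36.0 and 36.3 CPM at 0 h, 15.5 and 15.3 CPM at 12 h and 40.4 and 40.3 CPM at 24 h (1.39 ± 0.15, adjusted p = 0.000408). The 0 h libraries of numbers 3 and 4 had 60.0 and 72.0 CPM of Grb10, above both 24 h libraries. H19 and Grb10 kept their calls under each of the 4 leave-outs, and in all 3 genes the 24 h libraries lay above the 12 h libraries. The counts do not tell the alleles apart.

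Grb10 shared its dip with genes that were lower at 6 h than at 0 h and rose from 12 to 24 h, of which Aebp1, Syt13, Pcdh1, Fzd2, Pxdn, Clic5, Rab11fip4 and Mmp2 had the largest changes (chosen after their values were seen). Clic5 lost its call without either 12 h library, and Fzd2 and Mmp2 without number 1 of 12 h. Aebp1, a collagen-binding protein of the matrix, stood at 5.67 and 3.82 CPM at 0 h, 2.42 and 1.43 CPM at 6 h, 2.26 and 2.53 CPM at 12 h and 13.1 and 14.9 CPM at 24 h (2.54 ± 0.30 from 12 h, adjusted p = 0.000682). Pcdh1 stood at 21.3 and 20.98 CPM at 0 h, 10.5 and 8.95 CPM at 6 h, 6.31 and 7.68 CPM at 12 h and 26.5 and 24.6 CPM at 24 h (1.87 ± 0.23 from 12 h, adjusted p = 0.00101). Both were at 24 h above their level of 0 h in each library of numbers 1 and 2.

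Of genes of threonine and one-carbon use 5 of 21 were lower and none higher (1, 1, 1 and 7 lower under the leave-outs). Besides Tdh these were Shmt1, Mthfd1, Gldc and Amt, with log2 changes of -0.61, -0.54, -0.49 and -0.68, and each of these 4 lost its call without either 12 h library or number 1 of 24 h. Pdk1, which holds pyruvate back from oxidation in the mitochondrion, fell from 166 and 171 CPM to 74.9 and 95.2 CPM (-0.99 ± 0.16, adjusted p = 0.00337) and kept its call under each leave-out. Of cholesterol synthesis genes 1 of 21 was called (Ebp, higher by 0.54; 0, 0, 0 and 4 higher under the leave-outs). Of DNA methylation genes 1 of 12 was called (Tet3, higher by 0.76; 0, 0, 0 and 2 higher under the leave-outs), and the methyltransferase genes Dnmt3b and Dnmt3l did not pass (-0.31 and -0.32). Beside the counts of these last lists stand 6.65% higher and 5.9% lower over all genes tested.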
